A study of Homo sapiens with 15 samples.

Results

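The E2F transcription factors E2F1 to E2F8 and the retinoblastoma family genes RB1 and RBL1 were read in RNA-seq counts from a pair of human leukemia lines, ML1 and U937. The 10 genes were chosen by gene symbol, out of 26485 symbols in the count table, and all 10 were among the 17243 genes that passed a filter on low counts. Every culture was kept for 24 h with 5 µM Q-VD-OPh, a pan-caspase inhibitor, so no group was free of it. ML1 received diluent or 10 nM prexasertib, an inhibitor of the checkpoint kinase CHK1. U937 received diluent, 10 nM prexasertib, or 10 nM prexasertib together with 350 nM LSN622666, a compound known here by its code name. There were 5 groups of 3 libraries. No culture received LSN622666 without prexasertib, and no ML1 culture received it at all. The series asks which candidate transcription factors of the TNF gene change in mRNA level. Nothing in the labels tells if the 3 libraries of a group came from separate cultures. Every p-value below therefore measures only the spread between these samples, which may be technical.

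E2F proteins bind promoters of genes for DNA replication and cell division. E2F1, E2F2 and E2F3 are the activating members. E2F4 and E2F5 act mainly as repressors together with pocket proteins, E2F6 represses through polycomb complexes, and E2F7 and E2F8 are atypical repressors that bind DNA without a DP partner. The pocket proteins, RB1, RBL1 (p107) and RBL2 (p130), hold E2F factors in check until cyclin-dependent kinases phosphorylate them. RBL1 or RBL2 with E2F4 or E2F5, a DP protein and the MuvB core form the DREAM complex, which keeps cell cycle genes off in resting cells. Several family genes, E2F1 among them, are themselves E2F targets.

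Promoter letters are shown to let the E2F motif be read in front of family genes: E2F1, E2F2 and RBL1, which fell in ML1, and E2F3 and E2F7, which were not called there. The 300-base promoter windows came from RefSeq (GRCh38.p14), and 9 windows of 8 member genes were found. E2F5 and E2F8, which fell in ML1 too, had no window in that table. The motif searched was TTT, then 2 bases that are each C or G, then CGC, which spells TTTCCCGC, TTTCGCGC, TTTGCCGC or TTTGGCGC, on both strands. Each line below is the stretch of 150 bases that ends at the base before the start (position -1), on the gene's own strand, with the motif in capitals.

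E2F1: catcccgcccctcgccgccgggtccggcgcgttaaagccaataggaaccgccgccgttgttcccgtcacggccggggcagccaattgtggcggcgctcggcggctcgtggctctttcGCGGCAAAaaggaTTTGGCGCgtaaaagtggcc

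E2F2: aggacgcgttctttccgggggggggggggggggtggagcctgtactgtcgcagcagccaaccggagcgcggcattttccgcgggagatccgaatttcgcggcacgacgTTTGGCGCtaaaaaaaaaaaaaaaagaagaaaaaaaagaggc

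E2F3: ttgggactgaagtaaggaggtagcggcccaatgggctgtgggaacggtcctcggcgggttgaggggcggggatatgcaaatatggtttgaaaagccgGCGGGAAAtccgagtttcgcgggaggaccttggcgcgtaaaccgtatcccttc

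RBL1: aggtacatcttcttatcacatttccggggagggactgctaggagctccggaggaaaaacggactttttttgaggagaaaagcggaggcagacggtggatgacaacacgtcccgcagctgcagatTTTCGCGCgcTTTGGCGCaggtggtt

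E2F7: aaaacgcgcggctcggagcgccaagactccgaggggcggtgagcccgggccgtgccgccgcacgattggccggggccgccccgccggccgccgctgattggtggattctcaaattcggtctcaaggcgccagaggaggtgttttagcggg

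These stretches are chr20:33686386-33686535 (minus strand) for E2F1, chr1:23531234-23531383 (minus) for E2F2, chr6:20401729-20401878 (plus) for the upstream start of E2F3, chr20:37095998-37096147 (minus) for RBL1 and chr12:77065570-77065719 (minus) for E2F7. E2F1 held 2 motif matches, at -33 to -26 and -20 to -13, and RBL1 held 2, at -26 to -19 and -16 to -9. E2F2 held 1 at -42 to -35 and E2F3 held 1 at -53 to -46. None of these matches overlapped another. No match was found in the windows of E2F4, E2F6 and E2F7, in the downstream window of E2F3, or in the RB1 window, which lies at a start inside the gene. The motif was in 4 of the 9 member windows (44.4%), against 3.3% of 35116 promoter windows of all genes and 4.5% of 17036 windows of tested genes. Of the windows of a list of G1/S genes known as E2F targets, 43.2% of 44 held it. The CHR motif of late cell cycle genes (TTTGAA or TTCGAA, both strands) was in 63.6% of 22 windows of a G2/M gene list, 16.4% of all windows, and in 1 member window, that of E2F3, at -65 to -60. A match is a match of letters and no measure of binding.

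The libraries held 49011222 to 87301014 counts, and replicates correlated at 0.982 to 0.9937 on log2 CPM (read counts scaled to the library size). All 10 myeloid markers averaged at least 1 CPM in every group (the lines are labelled acute myeloid leukemia). Of 5 T cell markers CD3D and CD3E were at 0 in all libraries, and CD5 alone reached a mean of 1 CPM in any group (0.909 to 2.97 CPM). The 5 B cell markers summed to 6.401 to 7.346 CPM in ML1 with diluent, 11.4 to 27.9 CPM with prexasertib and 20.7 to 36.9 CPM over the U937 libraries, led by PAX5 in the treated and U937 groups. Of 5 erythroid markers KLF1 reached 3.15 to 4.02 CPM in U937, of 5 fibroblast markers COL1A1 reached 1.08 CPM in U937 with prexasertib, and no epithelial marker reached 1 CPM. The summed myeloid markers ran from 3264 to 3479 CPM in ML1 with diluent and from 5703 to 7406 CPM with prexasertib, led there by LYZ, the lysozyme gene. In U937 these sums were 1302 to 1666, 1036 to 1335 and 1342 to 1538 CPM with diluent, prexasertib and the combination. U937 prexasertib replicate 2 stood apart: over 1944 genes changed by prexasertib, its change had a slope of 1.21 on that of the other replicates, against 0.813 and 0.811 for replicates 1 and 3. Results that rest on it are given with and without it. In such bulk samples, fewer cells of a type and less RNA per cell cannot be told apart.

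Compared per length as RPKM (CPM per kilobase of exon), E2F1 and E2F4 led in ML1 with diluent, at 54.3 ± 4.67 and 54.3 ± 2.16 (mean ± SD, n = 3). RB1 followed at 28.1 ± 1.85 RPKM, E2F3 at 21.3 ± 1.39, E2F8 at 20.3 ± 1.04 and E2F2 at 16.5 ± 2.64. RBL1 was at 13.2 ± 2.14, E2F7 at 11.9 ± 1.95, E2F6 at 6.96 ± 0.775 and E2F5 at 0.424 ± 0.0564 RPKM. The ranges of the libraries overlapped between E2F1 and E2F4 and between each pair of neighbours from E2F3 down to E2F7, so the order within those runs was not resolved. With the longest transcript in place of the union of exons, E2F4 stood at 74.3 ± 2.96 RPKM, above E2F1.

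In U937 with diluent, E2F4 was first at 42.0 ± 7.07 RPKM, followed by RB1 at 23.2 ± 0.992 and E2F1 at 21.9 ± 2.59, whose libraries overlapped. E2F8, E2F3, RBL1 and E2F6 lay between 12.4 and 14.1 RPKM, each overlapping its neighbour in the order. E2F2 was at 6.19 ± 1.55, E2F5 at 1.59 ± 0.276 and E2F7 at 0.0055 ± 0.00272 RPKM. E2F4 thus held or shared the highest level in both lines, and E2F7 was last in U937.

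As a share of the summed RPKM of the 8 E2F genes, E2F1 made up 29.2% ± 0.499 in ML1 with diluent and 13.0% ± 1.01 with prexasertib. E2F4 went from 29.2% ± 1.71 to 42.3% ± 3.87, although its own level was not called changed. In U937 the share of E2F1 was 19.7% ± 1.12, 21.5% ± 1.16 and 20.0% ± 1.58 with diluent, prexasertib and the combination. The share of E2F4 there was 37.5% ± 1.72, 28.3% ± 4.12 and 42.4% ± 2.44. A share depends on all 8 genes at once, and none of these shares was tested.

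**Figure D1:**
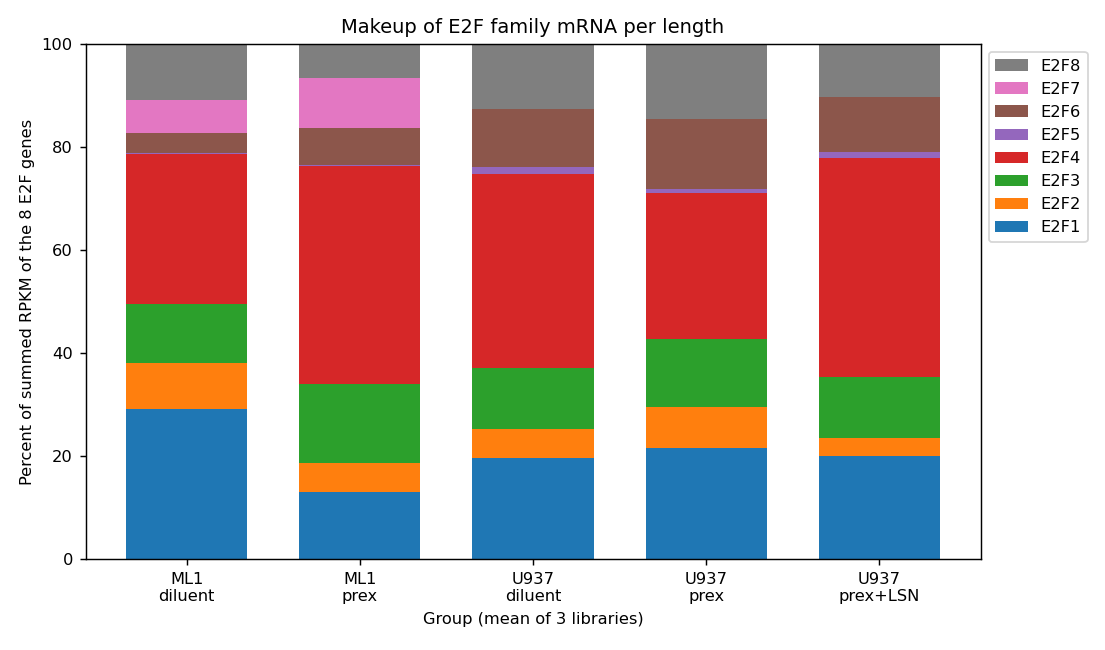
Stacked bars give the mean share of each E2F gene in the summed RPKM of the 8 E2F genes (percent, y axis) in each of the 5 groups (x axis, 3 libraries a group). E2F1 takes 29.2% in ML1 with diluent and 13.0% with prexasertib, and E2F7 is visible in the ML1 bars and not in the U937 bars.

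In ML1, prexasertib lowered 5 of the 10 family genes and raised 0. No gene of the family rose at an unadjusted p under 0.05 in edgeR's test, and 1 did in DESeq2. E2F1 fell most, by 1.86 ± 0.16 on the log2 scale, and E2F8, E2F2, RBL1 and E2F5 fell by 0.88 to 1.41. Over all 17243 tested genes, 48.8% were called in this comparison at an adjusted p under 0.05, 23.5% lower and 25.3% higher. The median log2 fold change of the 10 genes was -0.57, beside 0.03 over all genes. The summed myeloid and B cell markers given above were higher in the same treated libraries, and their part in the result was not tested.

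In U937 the same dose of prexasertib raised 3 of the 10 genes, E2F2, E2F6 and E2F8, and lowered 0. Over all genes 31.1% were called, 18.3% higher and 12.8% lower, so the share of members called was close to that of all genes. At an unadjusted p under 0.05, 6 of the genes were higher in edgeR's test and 4 in DESeq2, and 0 lower in either. The median log2 fold change was 0.36 for the 10 genes and 0.00 for all. Without U937 prexasertib replicate 2, 0 of the 10 genes were called (1 at an unadjusted p under 0.05), and without replicate 3 the number was 5. It was 1 without diluent replicate 1 or diluent replicate 3.

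The test of the difference between the lines' responses to prexasertib called 5 of the 10 genes, E2F1, E2F2, E2F3, E2F8 and RBL1, all with the higher change in U937. Over all genes 24.7% were called in this test, 12.4% with the higher and 12.3% with the lower change in U937. The median difference over the 10 genes was 0.96, beside 0.03 over all genes.

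Adding LSN622666 to prexasertib in U937 lowered 6 of the 10 genes against prexasertib alone, E2F1, E2F2, E2F3, E2F6, E2F8 and RBL1, and raised 0. Over all genes 29.0% were called, 17.1% lower and 11.9% higher. Against diluent the combination lowered 3, E2F2, E2F8 and RB1, where 11.0% of all genes were called, 4.11% lower and 6.88% higher. These comparisons share libraries with each other and with that of prexasertib against diluent, so they are not independent. In the comparison of the combination with diluent, 0 of the 10 genes were called without diluent replicate 2 or combination replicate 3 (4 at an unadjusted p under 0.05 each time), and 1 without combination replicate 1. In both comparisons of the combination 0 members were higher at an unadjusted p under 0.05, in edgeR and in DESeq2. Between U937 and ML1 with diluent, 9 of the 10 genes were called, 7 lower and 2 higher in U937. Over all genes 61.4% were called there, 29.4% lower and 32.0% higher. E2F7, among the 7, passed the low-count filter only through ML1, so its call rests on the line where it is high.

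**Figure D2:**
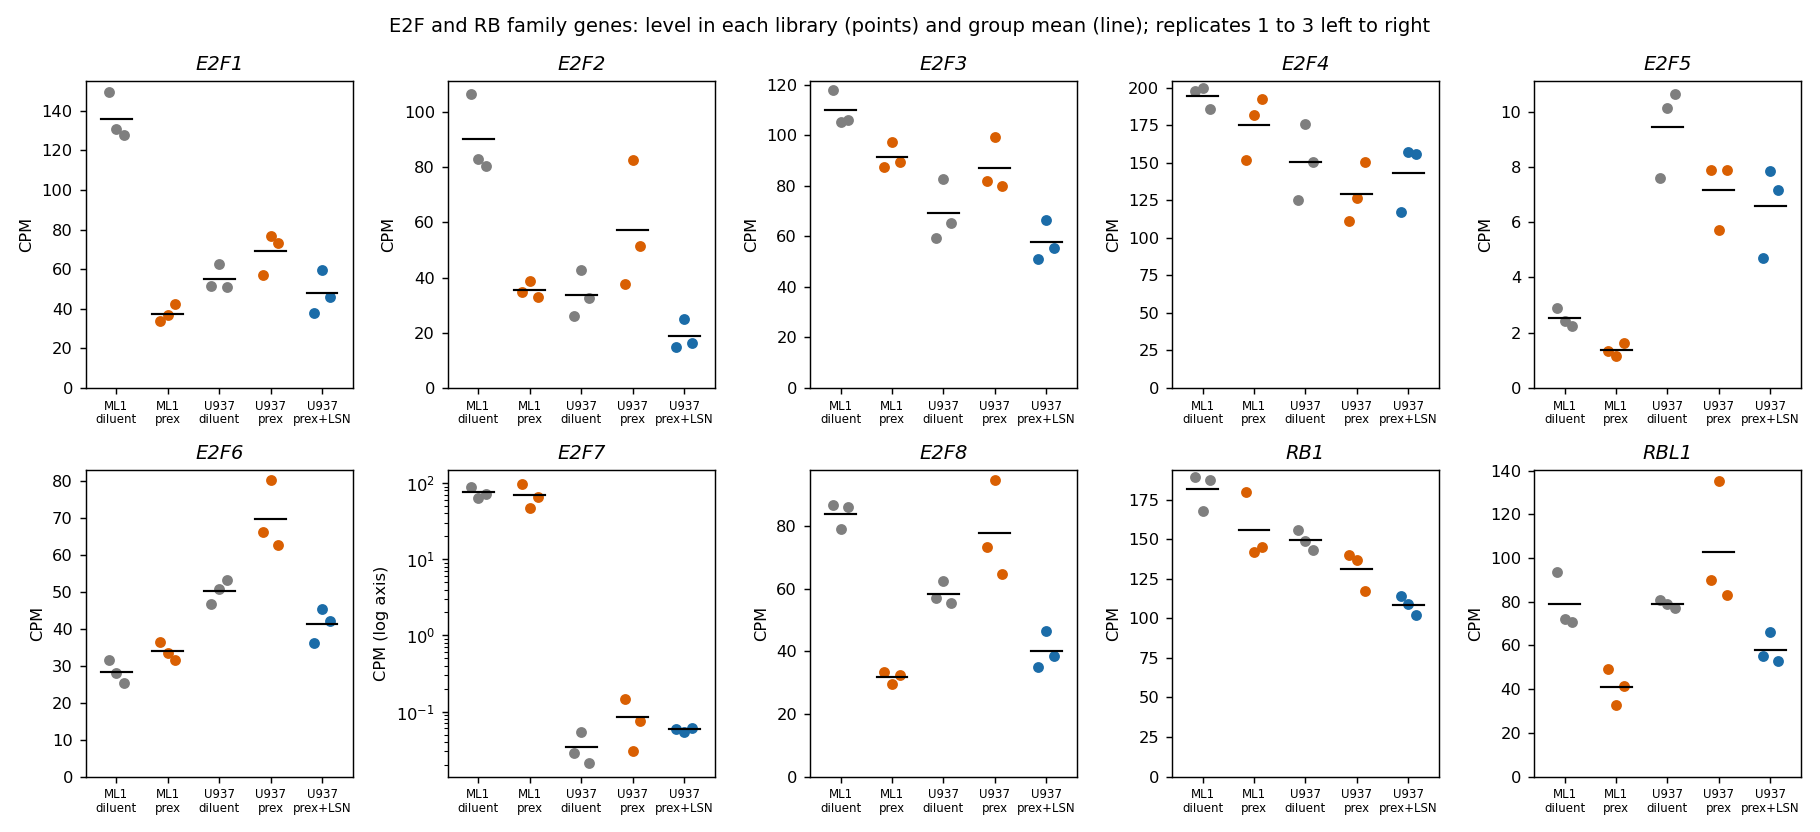
Points are the level of each gene in each library (CPM, y axis, drawn on a log axis for E2F7) by group (x axis), with replicates 1 to 3 from left to right and a line at the mean of 3 libraries. E2F1 lies at 127.6 to 149.3 CPM in ML1 with diluent and at 33.8 to 42.2 CPM with prexasertib, and U937 prexasertib replicate 2 holds the highest value of its group for E2F1, E2F2, E2F3, E2F6, E2F8 and RBL1.

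**Figure D3:**
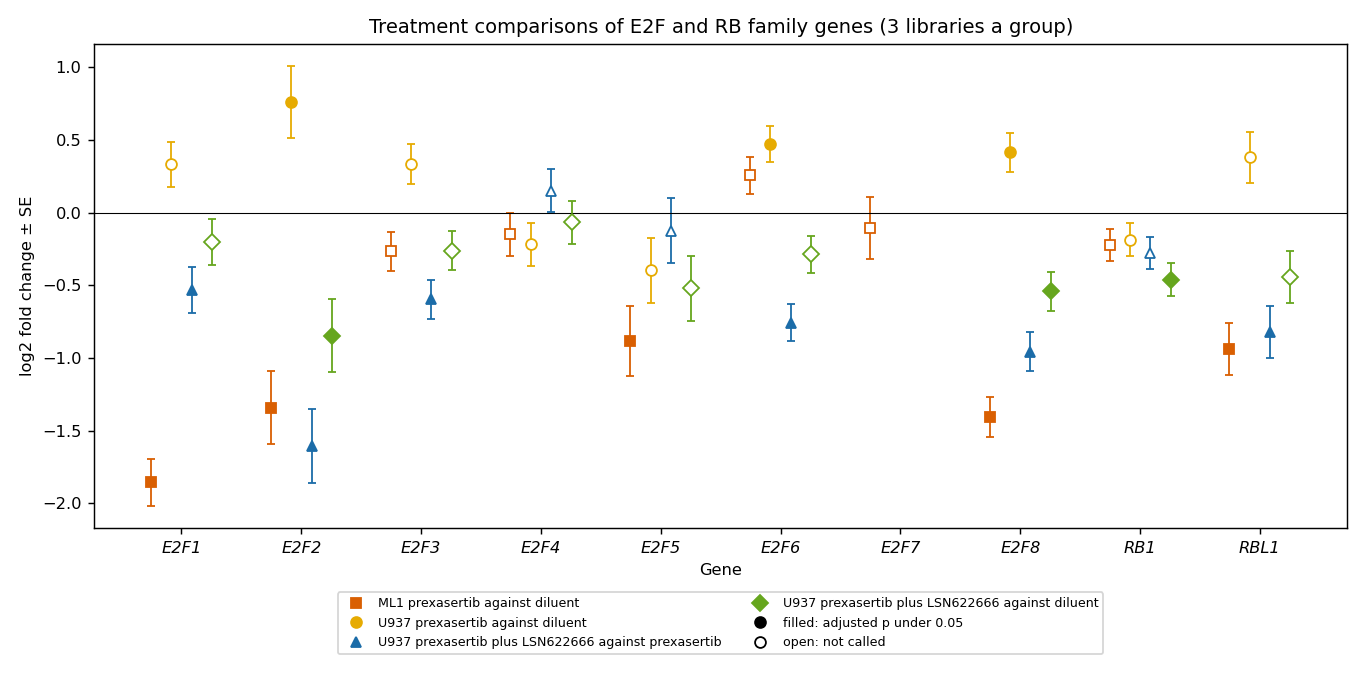
Log2 fold change (y axis) of each gene (x axis) in the 4 treatment comparisons, with 3 libraries a group. Bars are 1 standard error from the model over all 15 libraries, and symbols are filled for an adjusted p under 0.05. In ML1 the filled symbols run from -1.86 for E2F1 to -0.88 for E2F5, and the U937 values for E2F7, which rest on a few counts, are not drawn.

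E2F1, the activating factor best known for driving entry into S phase, stood at 149.3, 130.9 and 127.6 CPM in the 3 ML1 libraries with diluent and at 33.8, 36.7 and 42.2 CPM with prexasertib. All 3 treated libraries were below all 3 diluent libraries, and the fall was -1.86 ± 0.16 (log2 fold change ± SE; adjusted p = 4.98e-08, edgeR's quasi-likelihood test, as for all adjusted p-values below). In U937 the libraries were at 51.4, 62.4 and 51.0 CPM with diluent and at 57.3, 76.9 and 73.2 CPM with prexasertib. The groups overlapped, and the difference of 0.33 ± 0.16 did not pass (adjusted p = 0.116), although it did with a stricter low-count filter (0.42, adjusted p = 0.0467). The responses of the lines differed by 2.19 ± 0.23 (adjusted p = 1.5e-06).

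With the combination, E2F1 in U937 was at 37.6, 59.5 and 46.1 CPM. This was lower than with prexasertib alone by 0.53 ± 0.16 on the log2 scale (adjusted p = 0.0174), with replicate 2 of the combination above replicate 1 of prexasertib. The call ended in a model of only the groups compared (adjusted p = 0.0675) and without prexasertib replicate 2 or combination replicate 1 or 3 (-0.45, -0.39 and -0.51, adjusted p = 0.0803, 0.0911 and 0.0612). Against diluent the difference was -0.20 ± 0.16 (adjusted p = 0.419). In cells with diluent, E2F1 was lower in U937 than in ML1 by 1.31 ± 0.16 on the log2 scale (adjusted p = 1.34e-06), without overlap.

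E2F2, an activating factor that shares many targets with E2F1, was at 106.7, 83.2 and 80.7 CPM in ML1 with diluent and at 34.8, 38.8 and 33.1 CPM with prexasertib. No library overlapped, and the fall was -1.34 ± 0.25 (adjusted p = 0.00026). The U937 levels were 26.1, 42.9 and 32.4 CPM in diluent, 37.5, 82.5 and 51.6 CPM under prexasertib, and 14.9, 25.1 and 16.3 CPM under both compounds. Replicate 2 was the highest of each U937 group, and the diluent and prexasertib libraries overlapped.

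The rise of E2F2 with prexasertib in U937 was 0.76 ± 0.25 (adjusted p = 0.029). It was no longer called without prexasertib replicate 2 (0.37, adjusted p = 0.264), diluent replicate 1 (0.58, 0.12) or diluent replicate 3 (0.73, 0.0829), with no low-count filter (0.0581), or in a model of only the groups compared (0.058). LSN622666 lowered E2F2 against prexasertib alone by 1.61 ± 0.25 on the log2 scale (adjusted p = 0.000256), without overlap, the largest fall of the 10 genes in that comparison. Against diluent it was lower by 0.85 ± 0.25 (adjusted p = 0.0397), again without overlap. That call ended without diluent replicate 2 or 3 or combination replicate 1 or 3 (adjusted p = 0.177, 0.0845, 0.148 and 0.107), with upper-quartile scaling (0.0628), with no low-count filter (0.0754) and with a stricter one (0.0806). The lines' responses to prexasertib differed by 2.10 ± 0.35 (adjusted p = 0.000268), and with diluent U937 was lower than ML1 (-1.42 ± 0.25, adjusted p = 1e-04).

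E2F3, the activating factor transcribed from alternative promoters, stood at 118.2, 105.3 and 106.3 CPM in ML1 with diluent and at 87.4, 97.5 and 89.3 CPM with prexasertib. The libraries did not overlap, but the difference of -0.27 ± 0.14 did not pass (adjusted p = 0.113). It did in a model of only the groups compared (-0.26, adjusted p = 0.0437). U937 libraries held E2F3 at 59.4, 82.7 and 65.2 CPM in diluent, 82.1, 99.4 and 80.1 CPM under prexasertib, and 51.0, 66.5 and 55.5 CPM under the combination. Prexasertib and diluent overlapped (0.34 ± 0.14, adjusted p = 0.0668), and that value was called with upper-quartile scaling (0.39, 0.0288), with a stricter filter (0.43, 0.0238) and without diluent replicate 2 or prexasertib replicate 3 (0.49 and 0.39, adjusted p = 0.0206 and 0.0492).

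The combination libraries of E2F3 were all below the prexasertib libraries, by 0.60 ± 0.14 on the log2 scale (adjusted p = 0.00358). The difference between the lines' responses was 0.60 ± 0.19 (adjusted p = 0.0276), the smallest of the 5 called. It was lost without ML1 diluent replicate 1, ML1 prexasertib replicate 1 or 3, U937 diluent replicate 1 or 3, or U937 prexasertib replicate 2 (0.47 to 0.59, adjusted p = 0.0546 to 0.093). With diluent, U937 was lower than ML1 by 0.67 ± 0.14 on the log2 scale (adjusted p = 0.000335).

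E2F4, the main repressor E2F of resting cells, was called in none of the 4 treatment comparisons. Its libraries ran from 185.5 to 199.9 CPM in ML1 with diluent and from 151.7 to 192.4 CPM with prexasertib. In U937 they ran from 125 to 175.7, from 110.9 to 150.5 and from 117.2 to 157.2 CPM with diluent, prexasertib and the combination. The log2 fold changes were -0.15 ± 0.15 in ML1, -0.22 ± 0.15 for prexasertib in U937 and 0.15 ± 0.15 for the combination against prexasertib, and -0.07 ± 0.15 for the combination against diluent. The 95% interval of the ML1 value was -0.46 to 0.16, so a moderate fall was within the error. With diluent U937 was lower than ML1 (-0.37 ± 0.15, adjusted p = 0.039), a call lost without any of the 3 ML1 libraries or without U937 replicate 1 or 3 (adjusted p = 0.0549 to 0.169).

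E2F5, like E2F4 mainly a repressor, was the least abundant member in ML1. It was at 2.89, 2.42 and 2.24 CPM with diluent and 1.32, 1.14 and 1.64 CPM with prexasertib. All treated libraries were below all diluent libraries, and the fall was -0.88 ± 0.24 (adjusted p = 0.00547). U937 held more of it, 7.58, 10.1 and 10.6 CPM in diluent, 7.90, 5.72 and 7.87 CPM under prexasertib and 4.71, 7.86 and 7.15 CPM under the combination. The latter groups overlapped each other. No U937 treatment comparison was called (log2 fold changes -0.40, -0.12 and -0.52). With diluent E2F5 was higher in U937 than in ML1 by 1.91 ± 0.23 (adjusted p = 1.37e-06). Of its exon bases, 18.6% are shared with antisense genes, among them C8orf59, and counts without strand cannot tell the pair apart.

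E2F6 lacks the activating and pocket-binding parts of its relatives and was the only one of the 10 genes with a positive log2 fold change in ML1, where that of E2F7 changed sign when some libraries were left out. In ML1 it was at 31.6, 28.0 and 25.3 CPM with diluent and at 36.4, 33.6 and 31.5 CPM with prexasertib. These overlapped narrowly, and 0.26 ± 0.13 did not pass (adjusted p = 0.103), although it did with a stricter filter (0.33, 0.0403). Diluent libraries of U937 held 46.7, 50.7 and 53.3 CPM, those under prexasertib 66.3, 80.2 and 62.5 CPM, and those under the combination 36.3, 45.3 and 42.1 CPM. All prexasertib libraries were above all others of that line.

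The rise of E2F6 in U937 was 0.47 ± 0.13 (adjusted p = 0.0103), and without prexasertib replicate 2 it was 0.33 (adjusted p = 0.08). The combination was lower than prexasertib alone by 0.76 ± 0.13 on the log2 scale (adjusted p = 0.000383). Against diluent the combination differed by -0.29 ± 0.13 (adjusted p = 0.146) with no overlap between the libraries. The difference between the lines' responses was 0.22 ± 0.18 with a 95% interval of -0.16 to 0.59 (adjusted p = 0.426), so the lines were not told apart. With diluent E2F6 was higher in U937 by 0.83 ± 0.13 (adjusted p = 2.06e-05).

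E2F7, an atypical repressor and a p53 target in many cells, divided the lines. In ML1 it was at 88.6, 64.4 and 72.7 CPM with diluent and at 98.0, 47.0 and 64.6 CPM with prexasertib, which overlapped (-0.11 ± 0.21, adjusted p = 0.711). The U937 libraries held 2, 3 and 1 reads of E2F7 in diluent, 10, 2 and 5 under prexasertib and 4, 4 and 5 under the combination. The gene passed the low-count filter only through ML1. Summed over 3 libraries, 14740 reads in ML1 with diluent stood against 6 in U937 with diluent, a ratio of 2121 after scaling by library size (exact 95% interval 974.3 to 5781, counting error only). Against the 17 reads of U937 with prexasertib the ratio was 869.8 (543.1 to 1494), and against the 13 of the combination it was 1264 (738.9 to 2374). No treatment comparison of E2F7 was called in U937, and at such counts the intervals were wide (-0.42 to 2.90 for prexasertib against diluent, 95%).

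The genes around E2F7 (chr12:77021247-77065580, minus strand, GRCh38) were looked at after its values were seen. Within 1500 kb on each side, 8 protein-coding genes, E2F7 among them, were in the file and all 8 were tested. NAV3, a neuronal navigator gene that starts at -259.1 kb, upstream on the strand of E2F7, was at 7.12 ± 1.52 CPM in ML1 and 0.0584 ± 0.0465 CPM in U937. Like that of E2F7, its call rests on the line where it is high, and no fold is given against so low a level. ZDHHC17, a palmitoyltransferase gene, was at 68.4 ± 4.48 and 22.8 ± 1.65 CPM, and BBS10, a ciliopathy gene, at 25.7 ± 3.30 and 8.31 ± 0.397 CPM, both lower in U937 (-1.58 ± 0.15 and -1.63 ± 0.14, adjusted p = 6.01e-08 and 8.85e-09). OSBPL8 was lower by 0.50 ± 0.13 on the log2 scale (adjusted p = 0.0027). CSRP2, NAP1L1 and PHLDA1 were not called (adjusted p = 0.303, 0.873 and 0.362). Of the 7 neighbours, 4 were thus called, all lower in U937. Over all genes 61.4% were called between the lines, 29.4% lower and 32.0% higher in U937. The share of neighbours called in either direction was near that of all genes. That all 4 were lower was not tested. No copy number was measured.

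**Figure D4:**
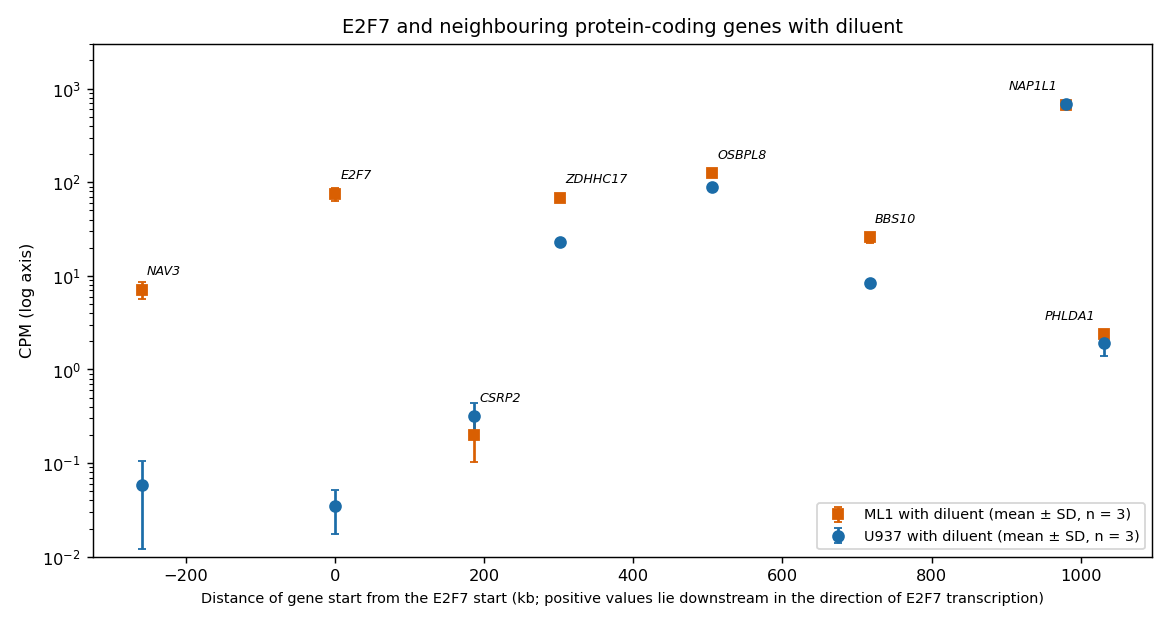
Mean level (CPM, log axis) with SD over 3 libraries of E2F7 and the 7 other protein-coding genes within 1500 kb, against the distance of their start from that of E2F7 (kb), in ML1 and U937 with diluent. E2F7 and NAV3 show the widest gaps between the lines, while NAP1L1 lies at 673 CPM in ML1 and 685 CPM in U937.

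E2F8, the other atypical repressor, was at 86.8, 79.1 and 86.2 CPM in ML1 with diluent and at 33.3, 29.5 and 32.4 CPM with prexasertib. The groups were far apart, and the fall was -1.41 ± 0.14 (adjusted p = 1.94e-07). U937 gave 57.0, 62.4 and 55.5 CPM in diluent, 73.4, 94.8 and 64.9 CPM under prexasertib and 35.2, 46.5 and 38.6 CPM under the combination. The U937 groups did not overlap in any pair, with the combination lowest and prexasertib highest.

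E2F8 rose with prexasertib in U937 by 0.41 ± 0.14 (adjusted p = 0.0282). The call was lost without prexasertib replicate 2 (0.21, adjusted p = 0.239), diluent replicate 1 (0.37, 0.08) or diluent replicate 3 (0.38, 0.0956), and in a model of only the groups compared (0.0669). With LSN622666 added it was lower than with prexasertib alone by 0.96 ± 0.14 on the log2 scale (adjusted p = 0.000109), and than with diluent by 0.54 ± 0.14 (adjusted p = 0.018). The call against diluent ended without diluent replicate 2 or combination replicate 1 or 3 (adjusted p = 0.0787, 0.0802 and 0.055) and with a stricter filter (0.0551). The lines' responses to prexasertib differed by 1.82 ± 0.19 (adjusted p = 2.05e-06), and with diluent U937 was lower than ML1 (-0.53 ± 0.14, adjusted p = 0.00254).

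RB1, the retinoblastoma tumor suppressor, was at 189.6, 167.8 and 187.2 CPM in ML1 with diluent and at 180, 141.8 and 145.3 CPM with prexasertib. These overlapped, and -0.22 ± 0.11 did not pass (adjusted p = 0.113), although it did without prexasertib replicate 1 (-0.34, 0.0209). The RB1 levels of U937 were 156, 148.7 and 143.2 CPM in diluent, 140.2, 136.6 and 117.3 CPM under prexasertib and 114.1, 108.8 and 102.4 CPM under the combination. The 3 U937 groups stepped down without overlap.

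Of these steps, that from diluent to the combination was called (-0.46 ± 0.11, adjusted p = 0.0158), and those from diluent to prexasertib (-0.19 ± 0.11, adjusted p = 0.219) and from prexasertib to the combination (-0.28 ± 0.11, adjusted p = 0.0732) were not. The last was called with the replicate number as a block (-0.28, adjusted p = 0.036) and without prexasertib replicate 3 (-0.35, 0.0347). The block was fitted over all 15 libraries of both lines and did not pair these groups alone. The call against diluent ended without diluent replicate 2 or combination replicate 3 (adjusted p = 0.0527 and 0.0558), with upper-quartile scaling (0.0691) and with a stricter filter (0.0661). The prexasertib responses of the lines differed by 0.04 ± 0.16, with a 95% interval of -0.30 to 0.37 (adjusted p = 0.909). With diluent U937 was lower than ML1 (-0.28 ± 0.11, adjusted p = 0.0377), and that was lost without ML1 replicate 1 or 3, U937 replicate 2 or 3, or the low-count filter (adjusted p = 0.0601 to 0.115).

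RBL1, the pocket protein whose own level rises in cycling cells, was at 93.5, 72.1 and 70.7 CPM in ML1 with diluent and at 49.2, 32.7 and 41.6 CPM with prexasertib. Every treated library was below every diluent library, and the fall was -0.94 ± 0.18 (adjusted p = 0.000301). For U937 the values were 80.7, 79.2 and 77.1 CPM in diluent, 90.0, 135.3 and 83.0 CPM under prexasertib and 55.2, 66.2 and 53.0 CPM under the combination. No U937 group overlapped another, and prexasertib replicate 2 was far above its fellows.

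The prexasertib value in U937 was 0.38 ± 0.18 (adjusted p = 0.11), called without prexasertib replicate 3 (0.51, 0.0396). The combination was lower than prexasertib alone by 0.82 ± 0.18 on the log2 scale (adjusted p = 0.00261), and against diluent it differed by -0.44 ± 0.18 (adjusted p = 0.111), called in a model of only the groups compared (0.0295). The responses of the lines differed by 1.32 ± 0.25 (adjusted p = 0.000809). RBL1 was the only member not called between the lines with diluent (0.00 ± 0.18, 95% interval -0.37 to 0.38).

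RBL2 (p130), the pocket protein of resting cells and no member of the set read here, was measured beside them. It was at 179.5 ± 12.5 CPM in ML1 with diluent and 126.8 ± 4.48 CPM with prexasertib, while U937 had 78.6 ± 9.43 CPM in diluent, 53.1 ± 17.6 CPM under prexasertib and 75.6 ± 14.3 CPM under the combination. RBL2 fell with prexasertib in both lines (-0.50 ± 0.19 in ML1 and -0.57 ± 0.19 in U937, adjusted p = 0.0338 and 0.0301), and the responses were not told apart (difference -0.07 ± 0.26). In U937 it was higher with the combination than with prexasertib alone (0.51 ± 0.19, adjusted p = 0.0497). These calls were not firm: that in ML1 ended without diluent replicate 1 or 3 or any prexasertib library (adjusted p = 0.062 to 0.102). The fall in U937 was lost without diluent replicate 1 or 3 or prexasertib replicate 2 (0.0705 to 0.116), and the combination's call without prexasertib replicate 2 or 3 or combination replicate 1 or 3 (0.0754 to 0.222). The exons of RBL2 share 18.2% of their bases with antisense genes.

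The DP proteins TFDP1 and TFDP2 are the dimer partners of E2F1 to E2F6. In ML1 both fell with prexasertib, TFDP1 from 506.3 ± 25.4 to 172 ± 21.6 CPM (-1.56 ± 0.15) and TFDP2 from 72.5 ± 1.38 to 27.6 ± 3.39 CPM (-1.40 ± 0.14, adjusted p = 1.79e-07 and 1.75e-07). In U937 TFDP2 fell with prexasertib (-0.66 ± 0.13, adjusted p = 0.00178) and was higher with the combination than with prexasertib alone (0.65 ± 0.13, adjusted p = 0.00194). TFDP1 had -0.38 ± 0.15 with prexasertib there (adjusted p = 0.0599). Of the 10 genes of the DP, RBL2, MuvB, MYBL2 and FOXM1 list, 7 fell and 1, the MuvB gene LIN37, rose in ML1 (median -1.05, beside 0.03 over all genes). Over all genes 23.5% fell and 25.3% rose with prexasertib in ML1. LIN37 was not called there without ML1 prexasertib replicate 3.

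In U937, 3 genes of that list rose and 3 fell with prexasertib, where 31.1% of all genes were called. The MuvB core genes LIN52, LIN37 and LIN54 rose by 0.95 ± 0.19, 0.65 ± 0.17 and 0.54 ± 0.15 (adjusted p = 0.00136, 0.0105 and 0.0129), and RBBP4, the histone-binding subunit, fell with TFDP2 and RBL2. Without U937 prexasertib replicate 2, LIN52 and TFDP2 alone stayed called, and TFDP2 was the 1 gene called lower without diluent replicate 3. The combination lowered LIN54, LIN52 and LIN9 against prexasertib alone and raised TFDP2 and RBL2, as given above. Over all genes 17.1% were lower and 11.9% higher in that comparison. MYBL2, which takes MuvB to mitotic genes, fell in ML1 by 1.75 ± 0.17 on the log2 scale (adjusted p = 1.64e-07), and its U937 value was -0.25 ± 0.17 (adjusted p = 0.259).

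Genes that act on RB proteins were read as a list of 17 kinases, cyclins and inhibitors. In ML1 with prexasertib 5 rose and 7 fell, where 25.3% of all genes rose and 23.5% fell. CDKN1A, the gene of the CDK inhibitor p21, went from 61.3 ± 18.9 to 1894 ± 49.5 CPM (4.95 ± 0.32, adjusted p = 1.63e-09), and CDKN2A and CCND1 rose by 2.10 ± 0.17 and 1.61 ± 0.20. The rise of CDKN2A started from a low level in ML1 with diluent, given in the next paragraph. CCNA2, CDK2 and CCNE2, the cyclins and kinase of S phase, fell by 2.37, 1.44 and 1.73 on the log2 scale. CCNE1 fell by 1.30 ± 0.21 (adjusted p = 5.68e-05).

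In U937 with prexasertib 5 of the 17 rose and 2 fell, where 18.3% of all genes rose and 12.8% fell, so the share that fell was near that of all genes. CDKN1A went from 7.40 ± 0.714 to 83.9 ± 28.2 CPM (3.50 ± 0.30, adjusted p = 1.5e-06) and was at 11.0 ± 4.81 CPM with the combination, lower than with prexasertib alone (-2.93 ± 0.29, adjusted p = 1.08e-05). CDKN2D and CDKN2B, INK4 inhibitors of CDK4 and CDK6, rose by 1.57 ± 0.24 and 1.94 ± 0.31. CDK6 and CDK2 fell by 0.63 ± 0.12 and 0.44 ± 0.12 on the log2 scale (adjusted p = 0.00087 and 0.0141), and without U937 prexasertib replicate 2 CDK2 was not called (adjusted p = 0.0532). CCNE1 and CCNE2, the cyclin E genes, were not called (-0.35 and 0.23). The rise of CDKN1A was smaller in U937 than in ML1 (difference -1.45 ± 0.39, adjusted p = 0.0108). Between the lines with diluent 8 of the 17 were higher and 7 lower in U937, where 61.4% of all genes were called. The INK4 gene CDKN2A was at 0.614 ± 0.0744 CPM in ML1 and 72.2 ± 9.43 CPM in U937, and the cyclin D gene CCND2 at 0.429 ± 0.0850 and 57.8 ± 9.01 CPM (adjusted p = 2.1e-15 and 4.26e-14).

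Of 36 G1/S genes known as E2F targets, all 36 fell in ML1 with prexasertib, where 23.5% of all genes fell. This list and the G2/M list below were chosen with earlier results of these data known, so such counts are not independent tests. CCNA2 is also in the list of genes that act on RB proteins. The median log2 fold change of the 36 was -1.67. Among those with the largest statistical support were CCNA2 and TK1, the thymidine kinase gene (-2.06 ± 0.14). In U937, 1 rose and 6 fell, with a median of -0.18. The share called in either direction was below the 31.1% of all genes, of which 18.3% were higher and 12.8% lower. POLA1 and TYMS, among the genes that fell there, did so by 0.73 ± 0.13 and 0.62 ± 0.15 on the log2 scale, and CHAF1A rose by 0.48 ± 0.18 (adjusted p = 0.0486), a call lost without diluent replicate 1 or 3 or prexasertib replicate 2 or 3 (0.0524 to 0.384). Without U937 prexasertib replicate 2, 0 rose and 3 fell, and 3 fell also without diluent replicate 2 or 3.

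The response of the G1/S genes differed between the lines for 35 of 36, each with the higher change in U937. Over all genes 12.4% were called with the higher change in U937. Against prexasertib alone, the combination lowered 9 of 36 (median -0.22; 17.1% of all genes were lower), among them CCNA2, RRM2 and CDT1, the last not called without U937 prexasertib replicate 2. That number was 2 without U937 prexasertib replicate 2 and 13 without replicate 1. Against diluent the combination lowered 7 (median -0.43, and 15 lowered in DESeq2), where 4.11% of all genes were lower. The number ranged from 2 without combination replicate 1 to 17 without combination replicate 2. Between the lines with diluent 5 were higher and 17 lower in U937 (median -0.29, beside 0.01 over all genes). The share called in either direction was near the 61.4% of all genes, of which 32.0% were higher and 29.4% lower. The lower genes were led by TK1, PRIM1 and CDT1, and 11 were lower without U937 diluent replicate 1.

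A list of 20 G2/M genes holds genes of mitosis that DREAM represses and MuvB with MYBL2 or FOXM1 activates. In ML1 all 20 fell (median -1.53), where 23.5% of all genes fell. They were led by CENPF, BUB1B and TOP2A, which act at kinetochores and on DNA tangles. In U937, 12 rose and 0 fell (median 0.42), where 18.3% of all genes rose and 12.8% fell. The mitotic kinase genes AURKA (132.7 ± 5.18 to 343.3 ± 82.9 CPM) and NEK2 (46.7 ± 4.56 to 96.8 ± 19.7 CPM) rose by 1.37 ± 0.19 and 1.05 ± 0.15, and UBE2C by 1.13 ± 0.19. Without U937 prexasertib replicate 2 the number was 8, without replicate 1 it was 7, and without replicate 3 it was 15.

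The difference between the lines was called for all 20 G2/M genes (median 2.27), each with the higher change in U937. Over all genes 12.4% were called in that direction. The combination lowered all 20 against prexasertib alone (median -0.88, 18 to 20 as each library was left out), and 5 against diluent (9 in DESeq2, 0 without combination replicate 1 and 9 without combination replicate 2). Over all genes 17.1% were lower against prexasertib alone and 4.11% against diluent. The median against diluent was -0.40, beside 0.00 over all genes.

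**Figure D5:**
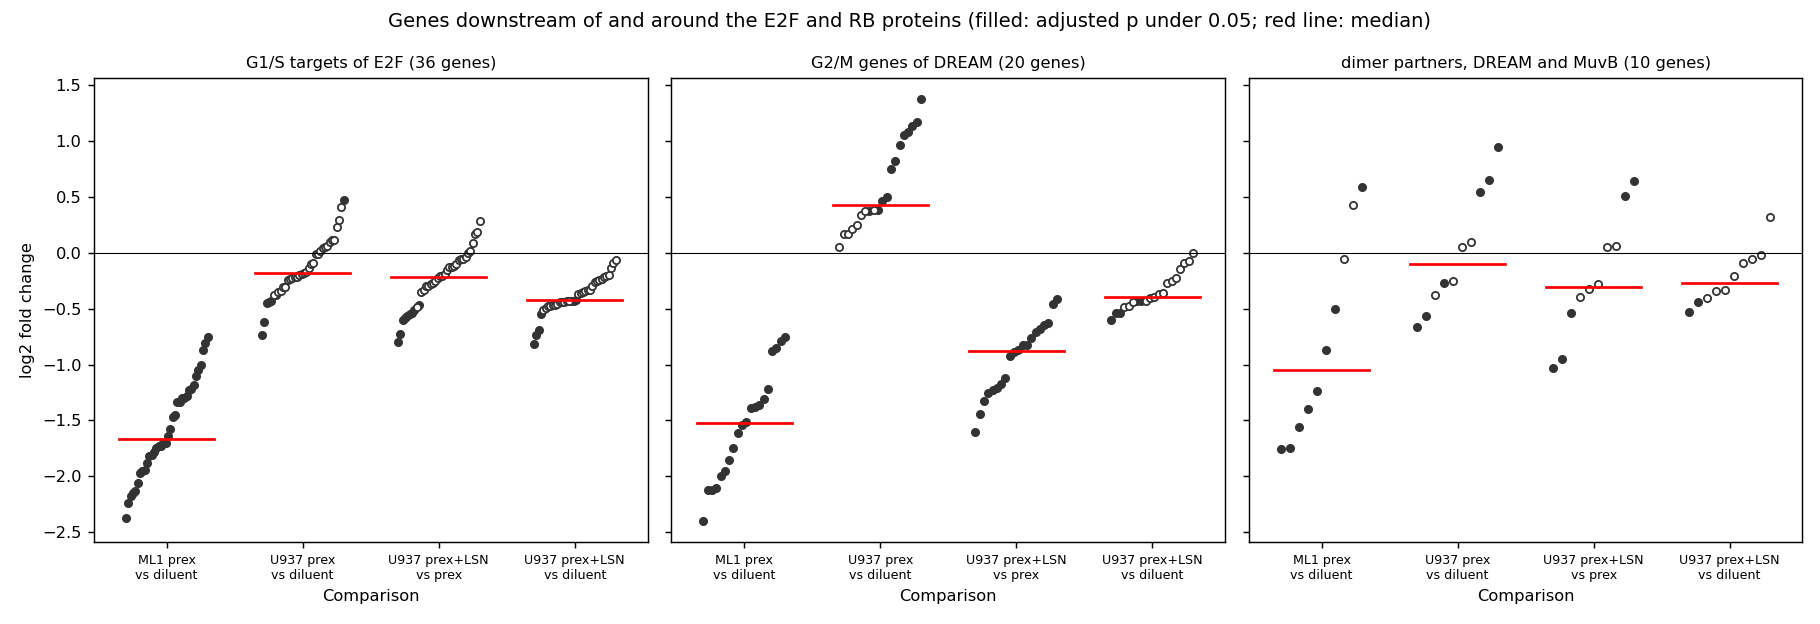
Log2 fold change (y axis) of each gene of 3 lists in the 4 treatment comparisons (x axis), as points sorted by value within each comparison, filled for an adjusted p under 0.05, with a red line at the list's median. All 36 G1/S and all 20 G2/M genes are filled and below 0 in ML1, and in U937 with prexasertib the medians are -0.18 and 0.42.

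The genes most like each family member over the 15 libraries were taken from 10915 genes with a mean of at least 5 CPM, for the members called in either comparison of prexasertib with diluent. Likeness was Pearson's r of log2 CPM, and the libraries are 5 groups of 3, not independent conditions. For E2F1 these were BIRC5, the survivin gene (r = 0.973), and FOXM1, the mitotic transcription factor (0.972). BIRC5 went from 167.5 ± 14.4 to 44.5 ± 7.17 CPM in ML1 and from 64.8 ± 2.76 to 87.8 ± 9.70 CPM in U937 with prexasertib. E2F8 was most like RAD21, a cohesin subunit (0.969), and ECT2, a cytokinesis factor (0.966). E2F2 was most like BUD13 and ORC6, an origin recognition subunit (0.951 and 0.948), and RBL1 most like MTFR2 and DIEXF (0.941 and 0.931). E2F6 was most like ZBTB2 and OSGIN2 (0.971 and 0.964), which stood at 52.6 ± 1.59 and 48.7 ± 1.72 CPM in U937 with diluent and at 93.9 ± 14.8 and 73.2 ± 10.9 CPM with prexasertib. E2F5 was most like CSNK2A1 and ANAPC1 (0.99 and 0.989), which, like E2F5, had higher mean levels in U937 than in ML1.

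TNF, the gene the series asks about, was at 3.94 ± 1.79 and 198 ± 55.5 CPM in ML1 with diluent and prexasertib, and at 2.70 ± 0.424, 16.5 ± 7.37 and 6.86 ± 3.23 CPM in U937 with diluent, prexasertib and the combination. All 7 genes of a list of TNF and candidate TNF factors rose with prexasertib in ML1 and in U937 (5 in U937 without prexasertib replicate 2 or diluent replicate 1 or 3). Over all genes 25.3% rose in ML1 and 18.3% in U937. The list was chosen with earlier results of these data known, so this count is not an independent test. In ML1, E2F1 was at 135.9 ± 11.7 and 37.6 ± 4.31 CPM in the same groups. The U937 means of E2F1 were 54.9 ± 6.48, 69.1 ± 10.4 and 47.7 ± 11.0 CPM in that order. The mean of E2F1 was lower where TNF was higher in ML1, and in U937 the group with the highest mean was that with prexasertib for both.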

How the data were processed

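The deposited table holds the authors' read counts by gene symbol for all 15 libraries, not normalized, and every column matched a sample by its name. Per the submitters' processing notes, the tools were featureCounts 1.4.6 (Subread), TopHat2 2.0.14 and Bowtie2 2.2.6, with hg38. Annotation and strand setting: not given in the sources used here. The labels name a TruSeq v2 RNA kit, which leaves strand unmarked.

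The test was that of edgeR 4.0.16 under R 4.3.3: filterByExpr with the groups, TMM scaling, 1 robust quasi-likelihood model with a mean per group over all 15 libraries (10 residual degrees of freedom), and Benjamini-Hochberg adjustment over 17243 genes, called under 0.05. Standard errors of log2 fold changes were worked back from that model's F statistic, as the absolute log2 fold change over its square root. Levels are CPM on the scaled library sizes. Lengths and positions came from GENCODE v29 (GRCh38), which matched all 10 symbols. The pipeline was tested on simulated data.

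The members and the 7 pathway lists, from general knowledge, were chosen with earlier results of these data known. Their counts are therefore not independent tests. Genes named from a list were taken from the up to 3 each way, in each comparison, with the smallest p among those called. Not all of these are named, and 1 is not reported here. RBL2, the DP genes, MYBL2, the cyclin E genes, CDK2, CDKN1A and TNF were named whatever their test, as were the 2 genes most like each member called with prexasertib.

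Replicate numbers paired the combination and prexasertib groups: deviations from group means correlated at 0.409, 0.37 and 0.384 between same-numbered libraries, above the limit of 0.1. In every other pair of groups compared at least 1 correlation was lower. Alternatives were DESeq2 1.42.0, 2 other scalings, no filter or a stricter one (5 CPM in 3 libraries), only the groups compared, a replicate block, another gene length and leaving out each library. Intervals of log2 fold changes are from the edgeR fit over libraries. Reads carry no molecular identifiers, so that of the E2F7 read ratio covers counting error only.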

Additional observations from a re-analysis of the deposited data

Results flagged for a closer look

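For 5 genes of the family the response to prexasertib differed between the lines in a test of the difference itself (edgeR's quasi-likelihood test, 3 libraries a group). The change in U937 minus that in ML1 was 2.19 for E2F1, 2.10 for E2F2, 1.82 for E2F8, 1.32 for RBL1 and 0.60 for E2F3 on the log2 scale. The first 4 stayed called as each of the 12 libraries was left out in turn, and E2F3 did not. U937 prexasertib replicate 2 had the highest level of its group for all 5, and without it the differences were 2.08 for E2F1, 1.72 for E2F2, 1.62 for E2F8, 1.04 for RBL1 and 0.47 for E2F3. No formal outlier test was run on single genes, since each group has 3 libraries.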

How the results depend on the processing

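Of 840 recomputed values of the 10 genes, 761 kept direction and side of the threshold, 45 lost their call, 14 gained one and 20 changed sign, 0 of them called. In U937 with prexasertib, 3 family genes were called, 5 with a stricter filter, 1 with only the groups compared and 0 to 5 as each library was left out, and genes called went from 5369 to 3553 with only the groups compared and 2761 to 6173 on leaving one out. For the combination against prexasertib, leaving one out gave 2920 to 5051 genes and 5 to 7 family genes. Against diluent, 1895 genes became 3015 with DESeq2, 2988 with the replicate block and 614 to 1791 on leaving one out, and the 3 family genes became 1 with upper-quartile scaling, 0 with the stricter filter and 0 to 3. The replicate block, fitted over all 15 libraries of both lines, gave 7 family genes for the combination against prexasertib (RB1 added, as above) and changed no other call there. Between the lines, deviations of same-numbered libraries with prexasertib correlated at 0.074, -0.119 and 0.11. The block also added E2F3 to the calls with prexasertib against diluent in U937 and in ML1 (0.34 and -0.27), where family genes called were 4 and 6. Such deviations in the diluent and prexasertib groups correlated at 0.317, 0.102 and 0.062 in U937 and at 0.161, 0.09 and 0.06 in ML1. Not all were above the limit of 0.1, so pairing was left unsettled there. Upper-quartile scaling moved the median of all genes by 0.106 in the combination against diluent.

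The sign changes were of values that were not called. E2F4 in the combination against diluent became 0.038 with upper-quartile scaling and 0.031 with the stricter filter, and ran from -0.201 to 0.060 as each library was left out, as did its difference between lines from -0.218 to 0.059. RBL1 between the lines became -0.042, -0.007 and -0.019 with upper-quartile scaling, the stricter filter and only the groups compared, and ran from -0.067 to 0.146. RB1 in the difference ran from -0.037 to 0.154, E2F7 in ML1 from -0.431 to 0.092, and in the combination against prexasertib E2F7 from -0.902 to 0.144 and E2F5 from -0.273 to 0.071. The causes were not tested. With the longest transcript as gene length, 6, 10, 7, 7 and 6 of the 10 genes kept their place in the order of levels in ML1 with diluent and prexasertib and in U937 with diluent, prexasertib and the combination. E2F7 had 1 to 10 reads in each U937 library, which limits what can be read of it there.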

Other observations

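E2F6 acts in a polycomb complex with MGA, L3MBTL2, PCGF6 and RYBP, and 10 such partner genes were read beside it. RYBP, which joins RING1 proteins to the complex, rose with prexasertib in both lines, from 24.3 ± 2.57 to 41.5 ± 5.13 CPM in ML1 (0.77 ± 0.16, adjusted p = 0.000719) and from 65.2 ± 5.06 to 113.5 ± 28.6 CPM in U937 (0.80 ± 0.16, adjusted p = 0.00171). MGA, the scaffold of the complex, rose in U937 (0.37 ± 0.13, adjusted p = 0.0335; lost without diluent replicate 1 or 3 or prexasertib replicate 1 or 2), and its response differed from that in ML1 by 0.65 ± 0.18 (adjusted p = 0.013). The combination lowered RYBP (to 56.6 ± 6.56 CPM) and MGA against prexasertib alone (adjusted p = 0.000277 and 0.00336), as it did E2F6. In ML1, CBX3, WDR5 and PCGF6 fell with prexasertib by 1.02 ± 0.13, 0.98 ± 0.17 and 0.64 ± 0.13 on the log2 scale. Of the 10 partners, 1 rose and 3 fell in ML1, where 48.8% of all genes were called, and 2 rose and 0 fell in U937, where 31.1% were called. The shares called in either direction were not above those of all genes. At an unadjusted p under 0.05, 2 partners were lower in U937, and DESeq2 called 2 lower.

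Germline genes are known to be silenced through E2F6 in body cells. Of 10 such genes, 5 had enough counts to be tested, and 0 were called with prexasertib in U937 in edgeR's quasi-likelihood test or in DESeq2 (1 at an unadjusted p under 0.05 in each, lower). Over all genes 31.1% were called there in edgeR's test, so 0 of 5 says little. In ML1, 1 of the 5 rose and 2 fell, where 25.3% of all genes rose and 23.5% fell. STAG3, a meiotic cohesin gene, rose in ML1 (0.814 ± 0.283 to 1.96 ± 0.491 CPM, 1.28 ± 0.39, adjusted p = 0.0112) while TDRKH and SYCE2 fell. That rise was not called without ML1 diluent replicate 2 or prexasertib replicate 1. STAG3 was at 1.67 ± 0.534, 1.11 ± 0.425 and 2.57 ± 0.987 CPM in U937 with diluent, prexasertib and the combination, higher with the combination than with prexasertib alone (1.21 ± 0.38, adjusted p = 0.0241), a call lost without prexasertib replicate 2 or combination replicate 1 or 3. SYCE2 was higher in that comparison too (0.56 ± 0.19, adjusted p = 0.0342). Its call was lost without prexasertib replicate 2 or 3 or combination replicate 1 or 2. Over all genes 11.9% were higher there. SMC1B, a meiotic cohesin gene like STAG3, was at 0.481 ± 0.0803 CPM in ML1 and 12.4 ± 3.90 CPM in U937 with diluent (4.68 ± 0.43, adjusted p = 3.51e-08).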
